A study of Mus musculus with 24 samples.

Results

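The Ugt, Gst and Sult genes encode the UDP-glucuronosyltransferases, the cytosolic and mitochondrial glutathione S-transferases and the sulfotransferases, which carry most of the phase II, or conjugation, reactions of the liver. They were taken as every gene of the table whose symbol starts with Ugt and a digit, with Gst, a class letter (a, m, p, t, k, o or z) and a digit, or with Sult and a digit. The rule found 55 genes of the 22392 in the table: 21 Ugt, 21 Gst and 13 Sult genes in 23 subfamilies, all annotated as protein coding. A mean normalised count of at least 10 over the 24 libraries was required for a test, and 44 of the 55 genes reached it (16 Ugt, 20 Gst and 8 Sult genes). The rule used symbols only and no measured value.

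Whole liver RNA was sequenced from 24 CD2F1 mice in 3 groups of 8. C26-CHO mice had received C26 cells, a mouse colon carcinoma line whose transplants cause wasting (cachexia), and ate a diet with the bile acid-binding resin cholestyramine at 2% by weight between day 1 and day 10 after the cells were given. C26 mice carried the same tumour without the resin. CT mice had a sham injection and no tumour. All resin-fed mice carried the tumour, so the resin is compared only within tumour-bearing mice. Mice are numbered 1 to 8 within a group, and the sources used here do not give age, sex or tumour weight.

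Phase II enzymes attach a polar group to drugs, bilirubin, steroids, bile acids and reactive by-products of metabolism, and the products leave the cell through export pumps. Ugt enzymes sit in the endoplasmic reticulum and transfer glucuronic acid from UDP-glucuronic acid. Gst enzymes join glutathione to electrophiles such as epoxides and products of lipid peroxidation. Sult enzymes are cytosolic and transfer sulfate from the donor PAPS to phenols, steroids and bile acids.

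Many of these genes lie in tandem arrays of close copies, which limits how well reads can be told apart. The Ugt1a genes of chromosome 1 share their exons 2 to 5 and differ in exon 1, so between 50.3% and 60.6% of the exon bases of each of the 9 genes also belong to another gene on the same strand. The following stretches, taken from the GENCODE M21 transcripts, show the last 30 bases of exon 1 of 3 of these genes in lower case and the first 30 bases of exon 2 in capitals, because the shared part carries no information on which gene a read came from.
Ugt1a1: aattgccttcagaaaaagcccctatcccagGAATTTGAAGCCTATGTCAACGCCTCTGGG
Ugt1a6a: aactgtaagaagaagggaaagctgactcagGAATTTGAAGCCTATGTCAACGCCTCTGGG
Ugt1a9: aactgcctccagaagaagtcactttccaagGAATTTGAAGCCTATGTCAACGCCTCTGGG

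Exon 1 gives each Ugt1a enzyme its substrate choice, and exon 2 is identical in all 3 stretches. A further gene, Gm20528, overlaps all 9 of them on the opposite strand, and the sources used here do not say whether counting used strand. Values of single Ugt1a genes are therefore uncertain as values of 1 gene.

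In the Gstp array of chromosome 19, Gstp1 (chr19:4035407-4037985, build GRCm38, minus strand) and its neighbours Gstp2 and Gstp3 lie on the same strand. The first 90 coding bases are shown because Gstp3 behaved unlike the other members of its subfamily; capitals mark bases that differ from Gstp1.
Gstp1: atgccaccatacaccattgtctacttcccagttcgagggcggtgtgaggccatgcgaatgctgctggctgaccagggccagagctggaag
Gstp2: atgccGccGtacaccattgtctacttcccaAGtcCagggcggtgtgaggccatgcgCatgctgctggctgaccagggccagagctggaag
Gstp3: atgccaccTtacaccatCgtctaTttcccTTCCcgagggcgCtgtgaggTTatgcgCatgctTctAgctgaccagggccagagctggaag

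Over these 90 bases Gstp2 differed from Gstp1 at 6 positions and Gstp3 at 13. Of all 50-base windows of Gstp1, 62.3% occur also in Gstp2, so reads could have been divided or dropped between these 2 genes. No 50-base window of Gstp3 occurs in another gene. Gsta1 and Gsta2 on chromosome 9 were identical over their first 90 coding bases.
Gsta1: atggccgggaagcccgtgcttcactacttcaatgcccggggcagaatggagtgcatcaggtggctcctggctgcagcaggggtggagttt
Gsta2: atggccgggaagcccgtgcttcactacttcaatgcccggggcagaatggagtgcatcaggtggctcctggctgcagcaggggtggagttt

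Of the windows of Gsta1, 89.7% occur elsewhere, most often in the predicted gene Gm3776, and of those of Gsta2, 64.2%. Ugt2b5 shared 34.8% of its windows with Ugt2b38, Gstm1 shared 23.2% and Gstm3 shared 28.8% with other genes. Values of Gsta1, Gsta2, Gstp1, Gstp2, Ugt2b5, Ugt2b38, Gstm1 and Gstm3 are accordingly uncertain as values of single genes, whereas Sult1e1, Sult2a8, Ugt2b1 and Gstp3 share no such window.

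Depth ran from 19.91 to 30.5 M reads and averaged 25.79 ± 3.50 M reads in C26-CHO, 22.80 ± 2.90 M reads in C26 and 22.02 ± 1.10 M reads in CT libraries (SD, n = 8 each). One library stood apart: on the first principal component of all tested genes, with 71.9% of the variance, C26-CHO 1 scored -13.41, against 22.32 to 50.48 for the other C26-CHO mice, 28.81 to 54.62 for C26 mice and -83.15 to -75.36 for CT mice. Counts, medians and fold changes that involve C26-CHO are therefore also given without it where it moved them most, a choice made after its values were seen. Among markers of other cells, 7 of 8 Kupffer cell and macrophage markers, 3 of 3 tested neutrophil markers and 5 of 6 markers of sinusoidal endothelium were higher in C26 than in CT livers, against 33.3% of all tested genes. The summed macrophage markers ran from 7188 to 12590 normalised counts in C26-CHO, from 7491 to 9807 in C26 and from 4270 to 6197 in CT livers. The summed neutrophil markers ran from 171 to 458 in C26-CHO, from 228 to 771 in C26 and from 37.3 to 78.4 in CT livers. Of the 8 hepatocyte markers, 2 were higher and 4 lower in C26 than in CT livers, albumin among the lower ones, and their sum ran from 743600 to 943000 in C26-CHO, from 696400 to 911400 in C26 and from 1519000 to 1748000 in CT livers. This sum leans on 1 gene, since the highest single marker averaged 1034000 in CT livers. The median log2 fold change of the 8 markers in C26 against CT was -0.171. Of 5 tested bile duct cell markers, Spp1 and Sox9 were higher and Krt19, Krt7 and Epcam were not called, and of 6 stellate cell markers 2 were higher and 1 lower. Both tested lymphocyte markers (2 of 6) and the 1 tested colon epithelium marker, Lgals4, were lower in C26 livers. The part of these marker changes in the results was not tested. In bulk tissue, fewer cells of a type and less RNA per cell cannot be told apart.

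Summed per kb of exon, Gst RNA was the most abundant of the 3 families in every group and Sult RNA the least. The Gst sum averaged 12781 ± 4749.7 normalised counts per kb in C26-CHO, 11591 ± 1671 in C26 and 62814 ± 8493 in CT livers (SD, n = 8 each). For Ugt genes it averaged 8627 ± 2200.0 in C26-CHO, 7473 ± 683 in C26 and 35113 ± 3849.9 in CT livers. Sult genes averaged 5355 ± 718 per kb in C26-CHO, 4743 ± 867 in C26 and 9175 ± 542 in CT livers. C26 livers held 18.5% of the CT level of Gst RNA and 21.3% of that of Ugt RNA, but 51.7% of that of Sult RNA. Gst genes took 0.111% of reads in C26-CHO, 0.0946% in C26 and 0.588% in CT livers. The share was 0.0877%, 0.0735% and 0.413% for Ugt genes and 0.0385%, 0.0315% and 0.120% for Sult genes, in the same order. By reads the Sult level of C26 livers thus lay further below CT than by the sum per kb.

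**Figure D1:**
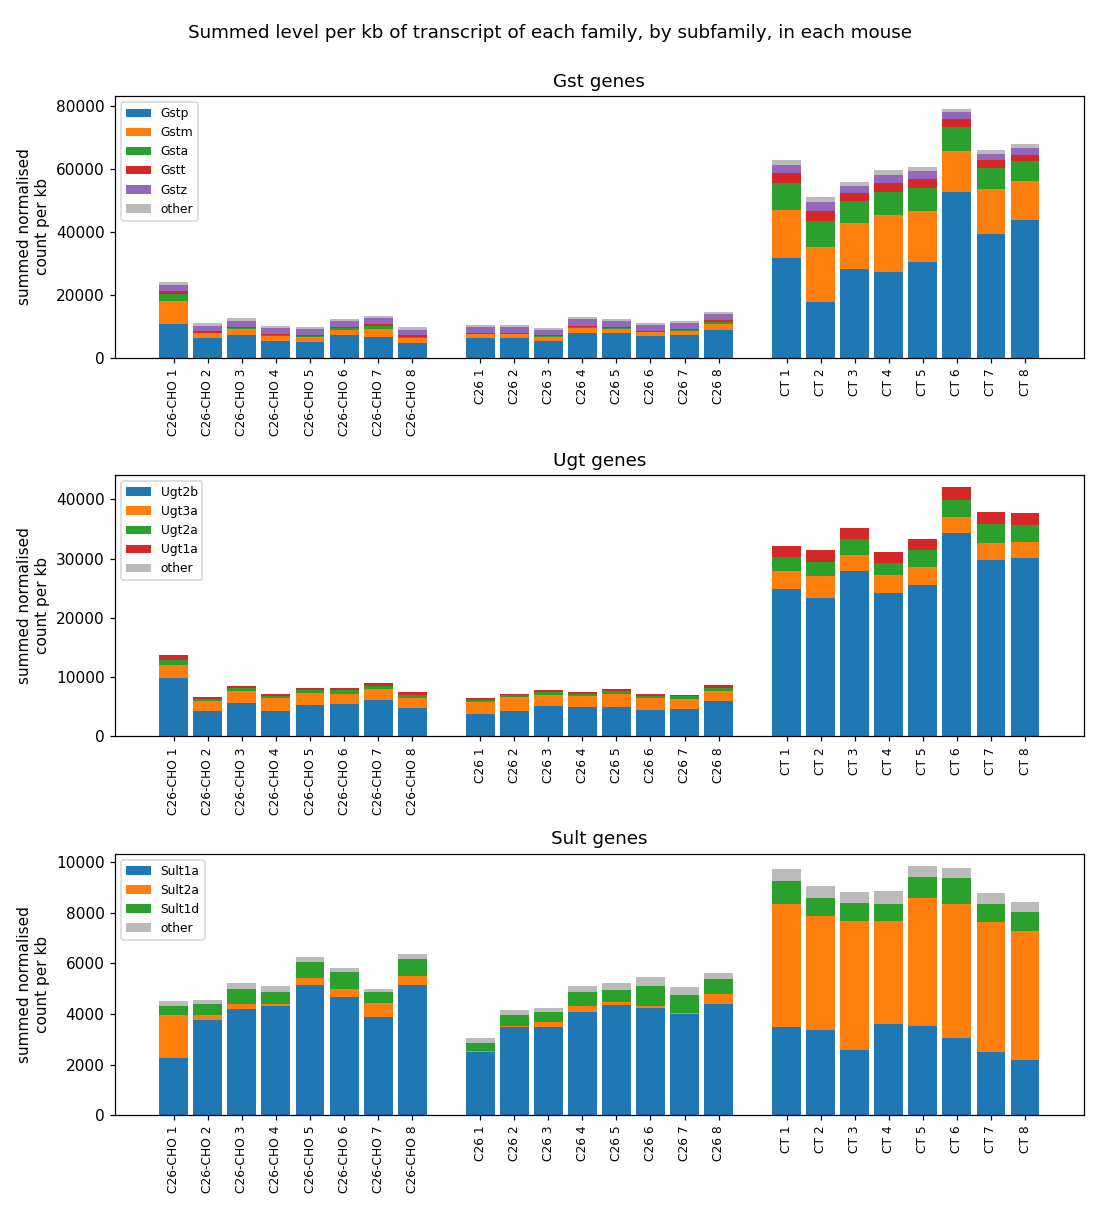
Summed normalised count per kb of exon of the Gst, Ugt and Sult genes in each mouse, stacked by subfamily, with the C26-CHO, C26 and CT mice from left to right and a separate vertical scale for each family. All CT bars stand above all bars of both tumour-bearing groups in each family, and C26-CHO 1 has the highest Gst (23989) and Ugt (13735) sums of the tumour-bearing mice.

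C26-CHO 1 had sums of 23989 per kb for Gst and 13735 for Ugt. The other 7 C26-CHO mice averaged 11180 (9582 to 13370) for Gst and 7897 (6716 to 9089) for Ugt, which is 17.8% and 22.5% of the CT means. For Sult genes C26-CHO 1 had 4496, the lowest of its group, and the other 7 mice averaged 5477.

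The makeup of the sums differed between groups. The bile acid sulfotransferase gene Sult2a8 made up 7.84% of the Sult sum in C26-CHO (4.61% without C26-CHO 1), 2.63% in C26 and 53.3% in CT livers. The phenol sulfotransferase gene Sult1a1 made up 78.0% in C26-CHO (81.2% without C26-CHO 1), 80.7% in C26 and 33.0% in CT livers. Within Gst, the share of Gstp1 was 34.99% in C26-CHO, 40.03% in C26 and 39.2% in CT livers. The share of Gstm1 was 10.1% in C26-CHO (7.06% without C26-CHO 1) and 18.1% in CT livers. In C26 livers Gstm1, at 547 per kb, stood below Gstp3, at 850 per kb and 7.33%. Gstz1, an isomerase of tyrosine breakdown, stood second in C26-CHO (14.5%) and in C26 livers (15.96%). Within Ugt1a, Ugt1a9 gave 20.3% of the sum in C26-CHO (17% without C26-CHO 1), 13.1% in C26 and 55.0% in CT livers. By this measure Ugt1a6a stood first in tumour-bearing livers, with 26.5% in C26-CHO and 32.3% in C26, ahead of Ugt1a6b with 22.3% and 27.9%. The lengths used include the shared exons, 50.3% of the exon bases of Ugt1a6a and 60.6% of those of Ugt1a6b. The order of these 2 genes therefore depends on the length used.

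The comparison of C26 with CT asks what the tumour does to the liver. Of the 44 tested genes, 39 were lower and 3 were higher in C26 livers, and 2, Gstm5 and Sult2a7, were not called (limma on log2 of the normalised count plus 1, Benjamini-Hochberg adjusted p under 0.05 over all 14040 tested genes). Over all tested genes, 66.3% were called, with 32.9% lower and 33.3% higher. For 38 of the 44 genes all 8 C26 mice lay below all 8 CT mice, against 18% of all tested genes, and for 2 they lay above, against 16.9%. The median log2 fold change of the 44 genes was -2.17, against 0.0056 over all tested genes. Of the called changes 28 exceeded 4-fold, Gsta1, Gsta2 and Sult1e1 among them. The share over all tested genes was not counted, so whether 28 is unusual was not tested. Gsta1 and Gsta2 reached the test through CT livers alone, since their means were under 10 in both tumour-bearing groups. Sult1e1 reached it through tumour-bearing livers alone, with means of 105.8 in C26-CHO, 189 in C26 and 5.19 in CT livers.

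**Figure D2:**
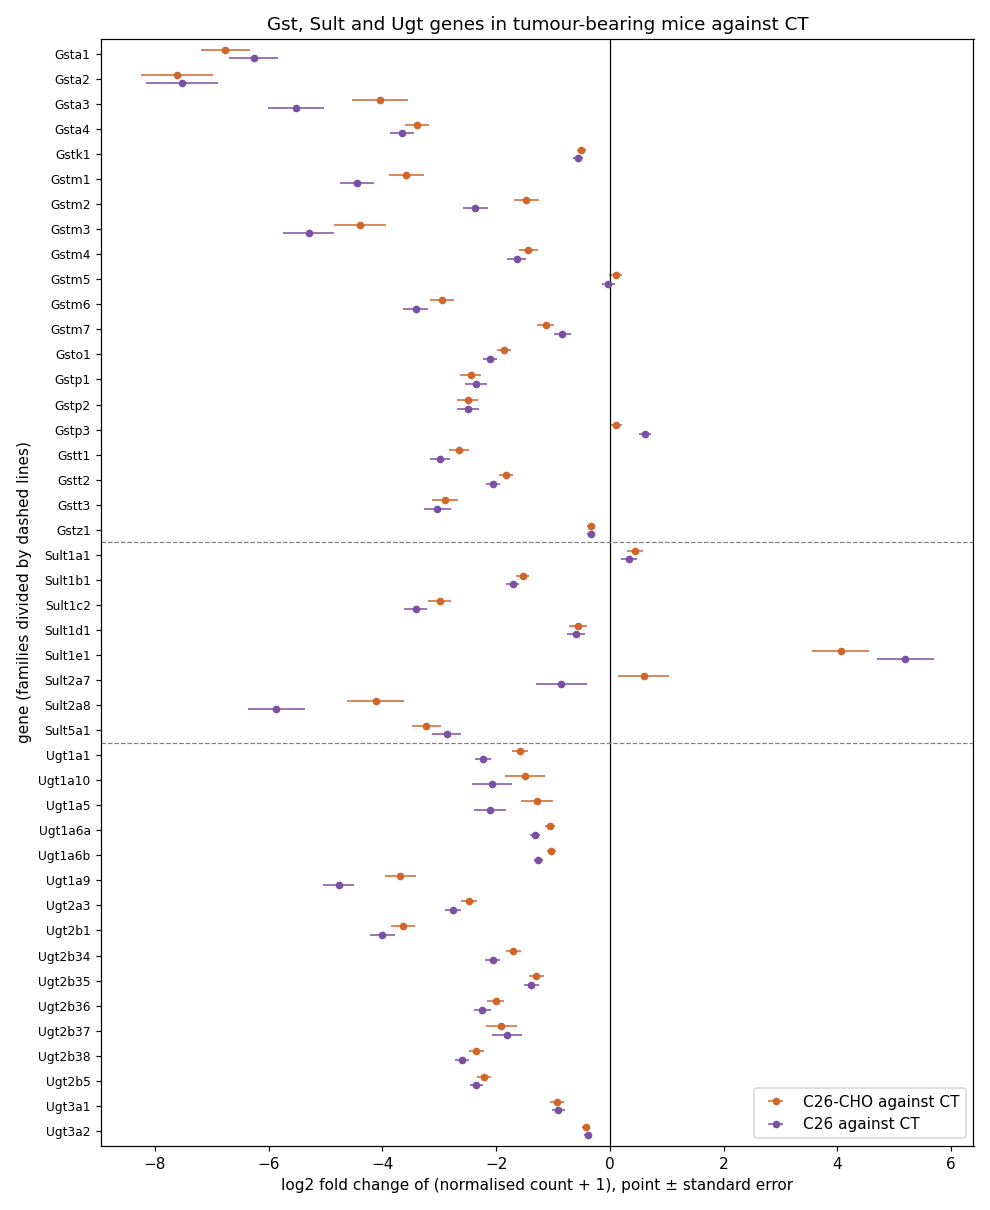
Log2 fold change of the normalised count plus 1, with its standard error from limma, for the 44 tested Gst, Sult and Ugt genes in C26-CHO livers and in C26 livers, each against CT livers. All 16 tested Ugt genes lie left of 0, Gsta1 and Gsta2 lie farthest left, and Sult1e1 stands alone far to the right at 4.06 in C26-CHO and 5.19 in C26 livers.

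By family, 18 of 20 Gst, 16 of 16 Ugt and 5 of 8 Sult genes were lower in C26 livers, with median log2 fold changes of -2.43, -2.09 and -1.28. The subfamilies spread more widely than the families. The alpha class Gsta had the lowest median, -5.89 over 4 genes, and the 3 theta class Gstt genes had -2.99. The alpha median draws on Gsta1 and Gsta2, which reached the test through CT livers alone. The other alpha class genes had -5.52 (Gsta3) and -3.65 (Gsta4). Gstm (7 genes) and Gstp (3 genes) had medians of -2.37 and -2.35. The Gst subfamilies nearest to 0 were the kappa and zeta classes with 1 tested gene each, at -0.56 for Gstk1, an enzyme of mitochondria and peroxisomes, and -0.34 for Gstz1. Among Ugt genes the medians were -2.76 for Ugt2a3, -2.24 for 7 Ugt2b genes, -2.09 for 6 Ugt1a genes and -0.65 for the pair of Ugt3a genes, which in humans use other sugar donors than glucuronic acid.

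Gsta3 (chr1:21240589-21265661, plus strand), whose product detoxifies aflatoxin epoxide in mice, was the leading alpha class gene. It had 359, 1794 and 7759 normalised counts in the lowest, median and highest C26-CHO mouse, 218, 548 and 2137 in C26 mice, and 21609, 23655 and 27283 in CT mice. No tumour-bearing mouse reached the lowest CT mouse. The log2 fold change of C26 against CT was -5.52 (SE 0.496, adjusted p = 3.33e-10).

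Gsta1 and Gsta2 had few reads in tumour-bearing livers. Gsta1 had 8 reads over all C26-CHO mice, with 5 of 8 libraries at 0, and 14 reads over all C26 mice, with 3 at 0, but 1504 reads over CT mice. Gsta2 had 55 reads in C26-CHO, 42 in C26 and 6035 in CT mice. The log2 fold changes of C26 against CT, -6.26 for Gsta1 (SE 0.432) and -7.52 for Gsta2 (SE 0.636), rest on these few reads and on the added 1. Gsta4, which conjugates the lipid peroxidation product 4-hydroxynonenal, fell by 3.65 on the same scale.

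Gstm1 was the leading mu class gene in CT livers, with 75.2% of the Gstm sum per kb. It had 819, 1045 and 7062 normalised counts in the lowest, median and highest C26-CHO mouse, 525, 671 and 1456 in C26 mice, and 13797, 17029 and 19083 in CT mice. The groups of tumour-bearing mice lay wholly below CT, and C26 against CT gave -4.45 on the log2 scale (SE 0.305, adjusted p = 2.26e-12). Gstm3 reached 18.6, 28.3 and 474 in C26-CHO, 11.6, 16.8 and 61.1 in C26 and 730, 864 and 1285 in CT mice. Its log2 fold change of -5.30 (SE 0.450) was the lowest of the mu class.

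All 7 Gstm genes lie on chromosome 3. The log2 fold changes of C26 against CT were -3.42 for Gstm6, -2.37 for Gstm2, -1.64 for Gstm4 and -0.84 for Gstm7, all called lower. Gstm5, singled out after its values were seen, did not pass the test (-0.03, SE 0.111, adjusted p = 0.832). Its means were 117 ± 16.4 normalised counts in C26-CHO, 107 ± 18.4 in C26 and 109 ± 15.9 in CT livers (SD, n = 8 each), and 13.9% of its exon bases lie opposite another gene.

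Gstp1 was the most abundant Gst gene per kb in all 3 groups. It had 4518, 6841 and 11659 normalised counts in the lowest, median and highest C26-CHO mouse, 5381, 7645 and 8813 in C26 mice and 19207, 34762 and 60405 in CT mice. No CT mouse overlapped with a tumour-bearing mouse, and C26 against CT gave -2.35 (SE 0.190, adjusted p = 4.71e-11). Gstp2 had 1177, 1668 and 2947 in C26-CHO, 1201, 1510 and 2265 in C26 and 5092, 8877 and 14640 in CT mice, with a log2 fold change of -2.50 (SE 0.190). Given the shared windows, it is not a measurement fully separate from Gstp1.

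Gstp3 moved against its subfamily. It had 431, 552 and 674 normalised counts in the lowest, median and highest C26-CHO mouse, 643, 791 and 888 in C26 mice, and 403, 467 and 632 in CT mice. Every C26 mouse lay above every CT mouse, and the log2 fold change was 0.61 (SE 0.104, adjusted p = 1.19e-05). Per kb its share of the Gstp sum was 9.16% in C26-CHO, 12.2% in C26 and 1.66% in CT livers.

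The 3 theta class genes fell by 2.06 (Gstt2) to 3.03 (Gstt3) on the log2 scale in C26 against CT livers, and the omega class gene Gsto1, a thioltransferase, fell by 2.11. All 8 C26 mice lay below all 8 CT mice for each of these 4 genes.

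All 16 tested Ugt genes were lower in C26 than in CT livers, each with no overlap between the 2 groups. Ugt2b5 and Ugt2b36 led the family per kb in CT livers, with 27.5% and 19.7% of its sum, and Ugt2b enzymes glucuronidate steroids, bile acids and drugs. Ugt2b5 had 2991, 3544 and 6324 normalised counts in the lowest, median and highest C26-CHO mouse, 3003, 3509.9 and 3736 in C26 mice and 14596, 16745 and 23583 in CT mice. Its log2 fold change in C26 against CT was -2.35 (SE 0.116, adjusted p = 3.55e-15). Ugt2b36 had 2275, 3622 and 6444 in C26-CHO, 2124, 3038 and 4118 in C26 and 12684, 13879 and 16474 in CT mice, with -2.24 (SE 0.151).

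Ugt2b1 had the lowest fold change of the 7 Ugt2b genes. It had 907, 1221 and 3809 normalised counts in C26-CHO mice (lowest, median, highest), 742, 1019 and 2006 in C26 mice and 13859, 16179 and 22069 in CT mice. The highest tumour-bearing mouse stayed far below the lowest CT mouse, and the log2 fold change was -4.00 (SE 0.215, adjusted p = 2.13e-14). Ugt2b1 supplied 18.9% of the Ugt sum in CT livers. The other 6 Ugt2b genes had log2 fold changes between -2.60 (Ugt2b38) and -1.38 (Ugt2b35) in C26 against CT.

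Ugt1a9, whose human counterpart glucuronidates phenols, had the lowest fold change of the tested Ugt genes. It had 105, 159 and 615 normalised counts in C26-CHO mice (lowest, median, highest), 56.2, 81.2 and 214 in C26 mice and 2097, 2332 and 2687 in CT mice. All CT mice stood above both tumour-bearing groups, and C26 against CT gave -4.77 (SE 0.272, adjusted p = 6.47e-14). Ugt1a1, the enzyme that conjugates bilirubin, had 116, 191 and 272 in C26-CHO, 75.1, 123 and 159 in C26 and 462, 553 and 698 in CT mice. On the log2 scale it changed by -2.23 (SE 0.143, adjusted p = 6.17e-13). Ugt1a6a and Ugt1a6b fell by 1.32 and 1.26, the smallest falls among the 6 tested Ugt1a genes.

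The Sult family was split. Sult2a8 (chr7:14410686-14446769, minus strand) had 245, 863 and 5226 normalised counts in the lowest, median and highest C26-CHO mouse, 69.3, 241 and 1198 in C26 mice, and 13376, 16663 and 17309 in CT mice. The highest mouse exceeded the lowest 21.3-fold in C26-CHO (6.51-fold without C26-CHO 1), 17.3-fold in C26 (9.60-fold without C26 8) and 1.29-fold in CT, and no tumour-bearing mouse reached the CT range. The log2 fold change of C26 against CT was -5.86 (SE 0.504, adjusted p = 1.45e-10). The log2 fold changes were -3.41 for Sult1c2, -2.87 for Sult5a1 and -1.71 for Sult1b1, which sulfates thyroid hormones, all called lower.

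Sult1e1, the estrogen sulfotransferase (chr5:87575969-87591594, minus strand), went the other way. It had 10.96, 111 and 205 normalised counts in the lowest, median and highest C26-CHO mouse, 87.2, 173 and 342 in C26 mice, and 0, 4.93 and 14.4 in CT mice. All C26 mice lay above all CT mice, and the log2 fold change was 5.19 (SE 0.504, adjusted p = 1.35e-09). This value rests on only 45 reads over all CT mice, with 1 CT library at 0, and on the added 1. Its neighbours on chromosome 5, Sult1d1 and Sult1b1, were lower in the same livers.

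Sult1a1 had 3411, 6409 and 7771 normalised counts in the lowest, median and highest C26-CHO mouse, 3790, 6102 and 6630 in C26 mice, and 3266, 4856 and 5420 in CT mice. The groups overlapped, with 5 of 8 C26 mice above all CT mice. Its log2 fold change of 0.34 (SE 0.145, adjusted p = 0.0436) passed the threshold narrowly and missed it when any of CT 3, 6, 7 or 8 or C26 4 to 8 was left out (0.27 to 0.34, adjusted p 0.0525 to 0.102) or when no filter was applied (adjusted p = 0.0534). Sult1d1, which sulfates dopamine in mice, had 898, 1312 and 1669 in C26-CHO, 751, 1284 and 1971 in C26 and 1676, 1797 and 2478 in CT mice. Here 6 of 8 C26 mice lay below all CT mice, and the log2 fold change was -0.59 (SE 0.161, adjusted p = 0.0022).

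**Figure D3:**
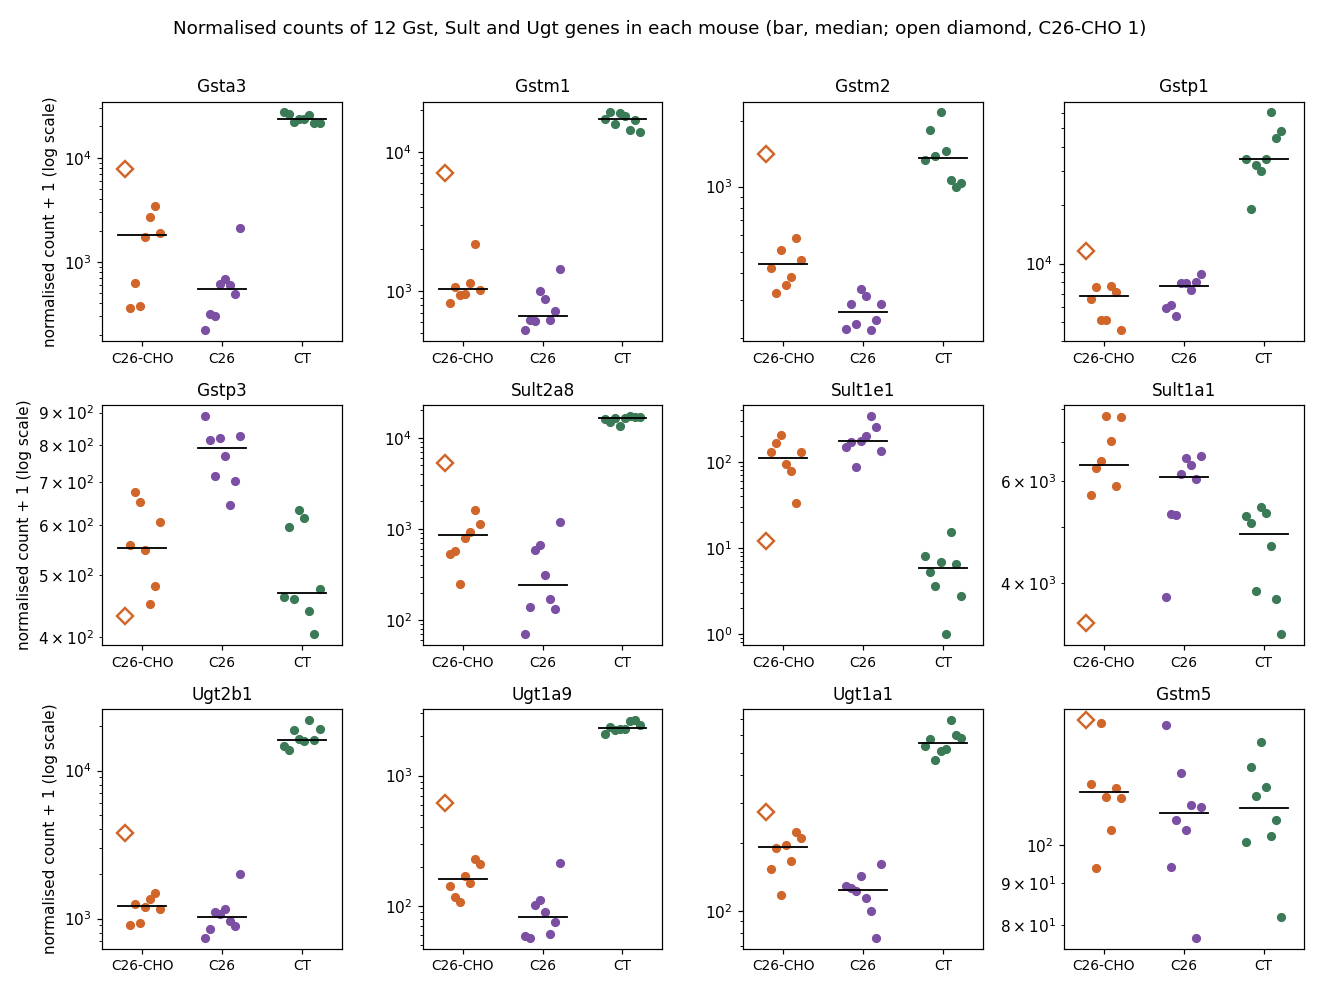
Normalised count plus 1, on a log scale, of 12 Gst, Sult and Ugt genes in each of the 8 C26-CHO, 8 C26 and 8 CT mice, with the group median as a bar and C26-CHO 1 as an open diamond. CT mice stand above both tumour-bearing groups for Gsta3, Gstm1, Gstp1, Sult2a8, Ugt2b1, Ugt1a9 and Ugt1a1, tumour-bearing mice stand mostly above CT for Sult1e1, and C26-CHO 1 lies toward the CT values in most panels.

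The 11 genes below the filter had mean normalised counts of 0.294 (Sult2a1) to 7.24 (Gsto2) over all libraries. Among them Ugt1a8, singled out after its values were seen, had 5 reads over all C26-CHO mice, 0 over all C26 mice and 57 over all CT mice. Sult2a1 had 1 read in C26-CHO, 0 in C26 and 7 in CT mice. The others, Gsto2, Sult2b1, Sult3a1, Sult4a1, Sult6b1, Ugt1a2, Ugt1a7c, Ugt2a2 and Ugt8a, a galactosyltransferase of myelin lipids, were detected in all 3 groups at levels too low for a statement.

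The comparison of C26-CHO with C26 asks what the resin changes in tumour-bearing mice. Of the 44 tested genes, 2 were higher, Gstm2 and Ugt1a1, and 1 was lower, Gstp3, in C26-CHO livers. Over all tested genes, 0.705% were called, with 0.556% higher and 0.150% lower. For none of the 44 genes were the groups free of overlap, as against 0.0997% of all tested genes above and 0.0356% below. Of the 44 fold changes 33 were above 0, with a median of 0.232 against 0.001 over all tested genes, and without C26-CHO 1 31 were above 0, with a median of 0.115. C26-CHO 1 had the highest C26-CHO value of 37 of the 44 genes and lay above all C26 mice for 35.

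Gstm2, a mu class gene, had 321, 439 and 1415 normalised counts in C26-CHO mice (lowest, median, highest) and 216, 264 and 338 in C26 mice, while CT mice had 994, 1356 and 2195. In C26-CHO 7 of 8 mice lay above all C26 mice. On the log2 scale it was higher by 0.90 (SE 0.218, adjusted p = 0.0497). Without C26-CHO 1 it was 0.68 (adjusted p = 0.0395), but leaving out other mice, CT mice included, moved the adjusted p to as much as 0.123, and 19 of 24 such fits missed the threshold, as did the fit with no CT mice (adjusted p = 0.109).

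Ugt1a1 had 6 of 8 C26-CHO mice above all C26 mice, with the values given above, and a fold change on the log2 scale of 0.65 (SE 0.143, adjusted p = 0.0291). Without C26-CHO 1 it was 0.57 (adjusted p = 0.0564). Leaving out C26 1, 2, 6 or 7 or C26-CHO 5, 7 or 8 also ended the call (adjusted p 0.0501 to 0.0807), as did a fit with no CT mice (adjusted p = 0.107). All 6 tested Ugt1a genes had fold changes above 0, from 0.23 for Ugt1a6b to 1.08 for Ugt1a9. Reads of the shared exons were not counted in full for each gene, since Ugt1a8 had 0 reads over all C26 mice and Ugt1a6a had 3300. How these reads were assigned is not stated, so the 6 genes may not be fully separate measurements. Ugt1a9 itself did not pass the test (SE 0.272, adjusted p = 0.0628), and without C26-CHO 1 it had 0.83 (adjusted p = 0.078).

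Gstp3 was lower in C26-CHO than in C26 livers, with 6 of 8 C26-CHO mice below all C26 mice and a fold change on the log2 scale of -0.50 (SE 0.104, adjusted p = 0.0208). Without C26-CHO 1 it was -0.45 (adjusted p = 0.0399). The call was lost without C26 1 (-0.47, adjusted p = 0.0661) or without C26-CHO 7 (-0.47, adjusted p = 0.062), and also with CT left out of the fit (-0.50, adjusted p = 0.0575). Gstp1 and Gstp2 gave -0.09 (SE 0.190) and -0.003 (SE 0.190) and were not called.

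No Sult gene was called in C26-CHO against C26 by limma, edgeR or DESeq2. In limma 4 of 8 had an unadjusted p under 0.05, against 1832 of all 14040 tested genes. On the log2 scale Sult2a8 gave 1.75 (SE 0.504, adjusted p = 0.102) and Sult1e1 gave -1.13 (SE 0.504, adjusted p = 0.325). Without C26-CHO 1 these were 1.39 (adjusted p = 0.2) and -0.74 (adjusted p = 0.627). Leaving out C26 8 or C26-CHO 4 brought Sult2a8 under the threshold (2.05, adjusted p = 0.0353, and 2.02, adjusted p = 0.0393). Gsta3 had 1.47 (SE 0.496, adjusted p = 0.165), with 3 of 8 C26-CHO mice above all C26 mice. Its value without C26-CHO 1 was 1.13 (adjusted p = 0.34).

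**Figure D4:**
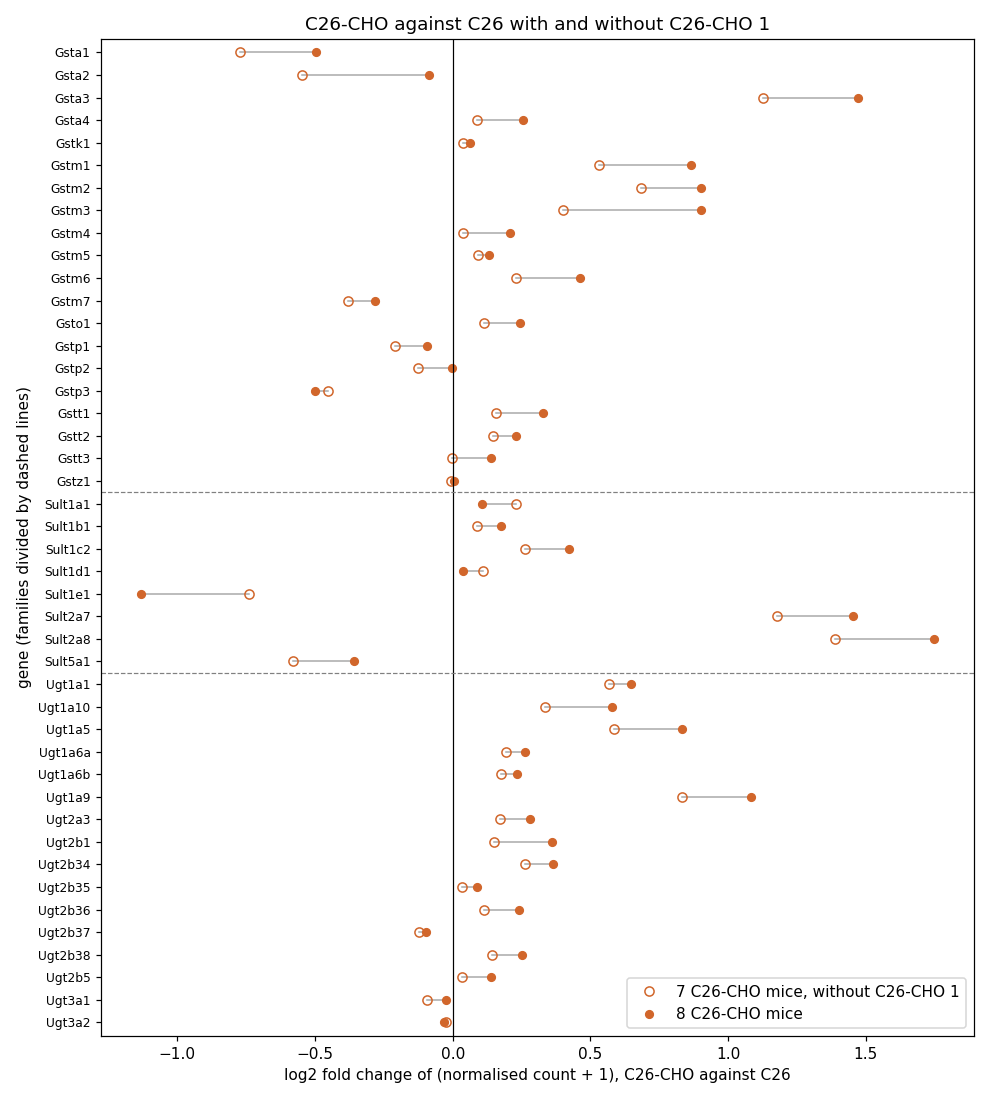
Log2 fold change of the normalised count plus 1 in C26-CHO against C26 livers for the 44 tested genes, with all 8 C26-CHO mice (filled) and without C26-CHO 1 (open), joined by a line. Leaving out this mouse moves most genes to the left, such as Gstm3 (0.90 with all mice, 0.40 without it), and leaves 31 of 44 genes above 0, against 33 with all mice.

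The comparison of C26-CHO with CT asks what remained different from tumour-free livers under the resin. Of the 44 tested genes, 39 were lower and 2, Sult1e1 and Sult1a1, were higher in C26-CHO livers, and Gstm5, Gstp3 and Sult2a7 were not called. Over all tested genes, 62.2% were called, with 30.9% lower and 31.3% higher. All 8 C26-CHO mice lay below all 8 CT mice for 34 of the 44 genes, against 13.1% of all tested genes, and without C26-CHO 1 for 38, against 16.8%. The median log2 fold change was -1.85 over the 44 genes, -2.47 over Gst, -1.64 over Ugt and -1.05 over Sult genes. Without C26-CHO 1 it was -1.92 over the 44 genes, -2.59 over Gst, -1.77 over Ugt and -1.05 over Sult genes. Leaving out any 1 of the 24 libraries, C26-CHO 1 included, left the counts at 39 lower and 2 higher.

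The lowest log2 fold changes of C26-CHO against CT were -7.61 (SE 0.636) for Gsta2, -6.76 (SE 0.432) for Gsta1 and -4.39 (SE 0.450) for Gstm3. Gsta2 and Gsta1 reached the test through CT livers alone. With 55 and 8 reads over all C26-CHO mice, their values rest on few reads and on the added 1. Gsta3 gave -4.04 (SE 0.496, adjusted p = 1.06e-07), Sult2a8 gave -4.12 (SE 0.504, adjusted p = 1.03e-07), Ugt1a9 -3.68 (SE 0.272) and Ugt2b1 -3.64 (SE 0.215). Without C26-CHO 1 the values were -8.07 for Gsta2, -7.04 for Gsta1, -4.90 for Gstm3, -4.39 for Gsta3, -4.47 for Sult2a8, -3.93 for Ugt1a9 and -3.85 for Ugt2b1. For Gstm2, Gstm4, Ugt1a5 and Ugt1a10 7 of 8 C26-CHO mice lay below all CT mice, and the exception was C26-CHO 1 each time. For Ugt2b37 the exception was C26-CHO 2.

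Sult1e1 was higher in C26-CHO than in CT livers by 4.06 on the log2 scale (SE 0.504, adjusted p = 1.28e-07). In C26-CHO 1 it had 10.96 normalised counts, within the CT range, and the other 7 mice, at 32.6 to 205, lay above all CT mice. Without C26-CHO 1 the difference was 4.45 (adjusted p = 1.6e-09). Sult1a1 was higher by 0.45 (SE 0.145, adjusted p = 0.00987), with 7 of 8 C26-CHO mice above all CT mice, and without C26-CHO 1 by 0.57 (adjusted p = 0.000203). Gstp3 did not pass the test (0.11, SE 0.104, adjusted p = 0.366). The 3 comparisons share groups of mice and are not independent of each other.

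Genes that supply and use the same substrates were counted from lists written with earlier results of these data known. Values are given for genes among the 4 with the smallest p of a list, and Gclm, Mgst1, Abcc4, Hnf4a, Ahr and Bach1 were chosen after their values were seen. The counts stand beside 33.3% of all tested genes higher and 32.9% lower in C26 against CT. Of 8 genes of UDP-glucuronic acid supply, 3 were higher and 4 lower in C26 than in CT livers. The higher ones included Pgm2 (log2 fold change 1.42) and Slc35b1 (0.99). The lower ones included both enzymes on the direct route: Ugp2, which makes UDP-glucose, had a mean of 1404 normalised counts in C26-CHO, 1374 in C26 and 8339 in CT livers (C26 against CT, -2.60, SE 0.0929), and Ugdh, which oxidises it to UDP-glucuronic acid, had 1891 in C26-CHO, 1188 in C26 and 2892 in CT livers (-1.28, SE 0.140). Ugdh was the 1 gene of these 7 pathway lists called in C26-CHO against C26, with 0.61 (adjusted p = 0.0388). Leaving out C26-CHO 1 gave 0.46 (adjusted p = 0.0277).

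For sulfate supply, 1 of 8 tested genes was higher and 2 were lower in C26 against CT. Papss2, a PAPS synthase, fell by 2.46 (SE 0.140) and the sulfate carrier Slc26a1 by 0.95, whereas Slc35b3, a PAPS carrier of the Golgi, rose by 1.93 on the log2 scale. For glutathione, 4 of 10 tested genes were higher and 5 lower. Gclc and Gclm, the subunits of the first enzyme of glutathione synthesis, fell by 1.10 and 0.71 and the reductase Gsr by 0.78. Chac1, which degrades glutathione, rose by 3.05, and Ggt6 rose by 2.03. Of 9 tested genes listed with the membrane-bound and other glutathione transferases, 4 were higher and 2 lower. The higher ones included Alox5ap (1.65), Clic1 (0.60) and Clic4 (0.59), which are counted by list membership and not as transferase enzymes. The lower ones were the microsomal enzymes Mgst3 (-2.62) and Mgst1 (-0.58).

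Other conjugating enzymes had 11 of 15 tested genes lower and 3 higher in C26 against CT livers. The methyltransferase genes Nnmt (7.31) and Inmt (-6.89) lay at opposite ends on the log2 scale. Exporters of conjugates had 6 of 9 lower, including Abcc2 (-1.48) of the bile canaliculus and Abcc3 (-2.04) of the blood side, and 2 higher, Abcc5 (1.75) and Abcc4 (0.77). Of 16 regulators, 6 were lower, including the receptor genes Nr1i3, or CAR (-3.00), and Ppara (-1.69) and the antioxidant regulator Nfe2l2 (-0.89). Hnf4a (0.40), Ahr (0.39) and Bach1 (0.50) were higher. In C26-CHO against C26, no gene of the other 6 lists was called by limma or edgeR, and DESeq2 called 8 of 67. In limma 16 of the 67 had an unadjusted p under 0.05, against 1832 of all 14040 tested genes. Over all tested genes DESeq2 called 247 higher and 76 lower.

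Promoter sequences (RefSeq, GRCm38.p6, 250 bases before to 50 after a start site) were found for 48 of the 55 genes, 59 promoters in all. Short motifs were searched on both strands. The antioxidant response element TGACNNNGC was found in 3 promoters (5.08%, against 12.4% of all 32851 promoters), those of Gsta3, Gstm7 and Gstm5. The stretches that hold it are shown with the match in capitals, as a description of the sequence and not of a bound site.
Gsta3: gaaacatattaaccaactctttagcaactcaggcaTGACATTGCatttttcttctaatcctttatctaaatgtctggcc
Gstm7: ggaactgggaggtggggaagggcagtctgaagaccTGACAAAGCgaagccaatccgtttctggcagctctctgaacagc
Gstm5: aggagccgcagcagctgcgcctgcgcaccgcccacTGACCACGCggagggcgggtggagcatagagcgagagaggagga

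They lie at chr1:21240429-21240507 (plus strand) for Gsta3, chr3:107931700-107931778 (minus strand) for Gstm7 and chr3:107895777-107895855 (plus strand) for Gstm5. The Gstm5 match overlaps a match to the xenobiotic response element on the opposite strand. In C26 against CT livers the log2 fold changes of these 3 genes were -5.52 for Gsta3, -0.84 for Gstm7 and -0.03, not called, for Gstm5. The xenobiotic response element GCGTG was found in 14 promoters (23.7%, against 32.4%), the STAT motif TTCNNNGAA in 4 (6.78%, against 8.3%) and the C/EBP motif TTGCNNAA in 11 (18.6%, against 10.8%). A missing match says only that these letters are not in the window searched.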

How the data were processed

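Liver RNA of 24 mice was measured by RNA sequencing. Per the submitters' processing notes, the tools were bcl2fastq 2.17, FastQC, Trimmomatic 0.38, STAR 2.6.1d on GRCm38 and DESeq2 1.22.2; the sources used here do not name the counting tool, the annotation or the strand setting. The authors deposited a normalized signal, the count of each gene divided by a size factor of its library, here called the normalised count. Within a tolerance of 0.001 of a read, 100% of values were whole multiples of 1 read, so reads were recovered. Symbols, coordinates and exon lengths came from GENCODE M21 (22009 of 22392 identifiers matched).

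Genes with a mean of at least 10 (14040) entered limma 3.58.1 (R 4.3.3), with an intensity trend, on log2 of the value plus 1, in a single fit of the 3 groups without covariates. Benjamini-Hochberg adjustment ran over all tested genes within a comparison, with a threshold of 0.05, and fold changes understate those of low genes. The procedure was tested on simulated data with the same spread set for every gene and no outlying mouse. That test does not show how the procedure handles a mouse such as C26-CHO 1. Sequences shared between genes were searched in windows of 50 bases. Alternatives were other pseudocounts (0.1 and 10), filters (none, 50), scalings, edgeR 4.0.16 and DESeq2 1.42.0 on recovered reads, each comparison's own groups, a replicate block and each library left out. Each library is 1 mouse, and nothing says more of how mice were housed or processed together.

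Genes given with the values of single mice were, in each family, the 3 with the highest level per kb in CT, the 8 largest called rises and falls of each comparison with a mean of at least 50, all called in C26-CHO against C26, and those called against their subfamily. One gene and 1 motif that were measured are not reported here. The members, lists and tests were chosen with earlier results of these data known.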

Additional observations from a re-analysis of the deposited data

Results flagged for a closer look

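In 17 of 132 sets of 8 mice (44 genes in 3 groups), 1 mouse stood apart: its gap to the nearest other mouse, divided by the range of its group, both taken on log2 of the normalised count plus 1, exceeded Dixon's critical value for 8 samples. Chance gives this in about 1 of 20 such sets, and the genes are not independent. In 13 of the 17 the mouse was C26-CHO 1.

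C26-CHO 1 was the highest of its group, with gap ratios of 0.55 for Gsta1, 0.543 for Gstm1, 0.606 for Gstm2, 0.673 for Gstm3, 0.725 for Gstm4, 0.696 for Gstm6 and 0.633 for Gstt1. The same held for Ugt1a5 (0.693), Ugt1a6b (0.53), Ugt1a9 (0.563), Ugt2b1 (0.66) and Ugt2b38 (0.745). Gstm3 had 474 normalised counts in this mouse and 54.7 in the next highest C26-CHO mouse, and Gsta1 had 4.70 and 1.19. For Sult1a1, C26-CHO 1 was the lowest (3411, next 5679, ratio 0.619).

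C26 8 was the highest C26 mouse for Gsta4 (219, next 121, ratio 0.625) and for Ugt2b1 (2006, next 1163, ratio 0.549). C26 1 was the lowest C26 mouse for Sult1a1 (3790, next 5252, ratio 0.583). CT 4 was the highest CT mouse for Gstm3 (1285, next 939, ratio 0.555).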

How the results depend on the processing

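Against CT, the counts of Ugt, Gst and Sult genes called stayed within 1.5 times under all alternatives run: 37 to 44 lower and 2 to 3 higher for C26, and 37 to 42 lower and 2 higher for C26-CHO. Of 1890 values of the named genes, 1809 kept direction and side of the threshold, 46 lost and 8 gained a call and 27 changed sign. In C26-CHO against C26 the count of 2 higher genes became 1 with a pseudocount of 0.1 or without a filter, 5 with DESeq2 (Gsta3, Gstm1 and Ugt1a9 added), and 0 when CT was left out of the fit, where the 1 lower gene became 0 too. Over all 14040 tested genes limma called 78 higher, DESeq2 called 247 higher, and limma without CT called 10 higher and 0 lower. Leaving out single libraries gave 0 to 3 higher and 0 to 1 lower among the Ugt, Gst and Sult genes. The cause of these shifts was not tested.

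The sources used here do not say whether the replicate numbers pair the mice. Deviations of same-numbered mice correlated from -0.204 to 0.255, over 0.1 in 9 of 24 pairs. With the replicate number as a block, 0 Ugt, Gst or Sult genes were higher and 1 lower in C26-CHO against C26. Over all tested genes the block moved the calls in C26 against CT from 4681 to 4847 higher and from 4624 to 4796 lower. In C26-CHO against C26 they went from 78 to 69 higher and from 21 to 28 lower. Whether same-numbered mice share a factor was not tested.

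Signs that changed were all of genes not called in C26-CHO against C26. Gsta2 (-0.09) had 0.14 to 0.15 with edgeR (0.143 and 0.145), 0.005 with DESeq2, and -0.55 to 0.37 with single libraries left out. Gstp2 (-0.003) had 0.004 with TMM scaling, 0.032 and 0.035 with edgeR, 0.032 with DESeq2 and -0.12 to 0.065 without single libraries. Sult1d1 (0.04) had -0.072 to 0.13 without single libraries. Gsta1 and Gsta2 are limited by under 100 reads in each tumour-bearing group.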
